A study of Mus musculus with 14 samples.

Results

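The genes described here are the protein-coding genes of the mouse colon RNA-seq tables that carry the same gene length in both deposited tables, compared between MiR-29ab1-/- mice given dextran sulfate sodium (DSS) and MiR-29ab1-/- mice given none. Of 56232 genes listed in either table, 54378 are in both and 21816 of these are protein-coding in both; 1227 have different lengths, which leaves 20589. The mice were C57BL/6N with a germline deletion of miR-29ab1, 4 without DSS and 3 after 3.5% DSS in the drinking water for 3 days, and WT C57BL/6N mice (4 without DSS, 3 after DSS) serve as the reference for the DSS response without the deletion. The question is how the colon of mice without miR-29a and miR-29b-1 responds to DSS. All mice without DSS are in one table and all DSS mice are in the other, and these tables come from separate sequencing batches, so the effect of DSS and the effect of the batch cannot be told apart in any comparison of DSS with no DSS. Per the study's methods, mice were littermates of 8 to 12 weeks matched for age and sex unless stated otherwise.

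DSS is a sulfated polysaccharide that damages the surface epithelium of the colon and lets luminal bacteria reach the mucosa. The colon epithelium is renewed from stem cells at the crypt base, which depend on Wnt signals, through dividing progenitors to absorptive colonocytes, mucus-secreting goblet cells, tuft cells and enteroendocrine cells. Injured epithelium is known to switch from the stem cell program to a wound-associated program with Ly6a and EGF family ligands, while neutrophils and monocytes enter the tissue. The miR-29 family represses transcripts of collagens, DNA methyltransferases and other proteins through seed pairing in their 3′ untranslated regions.

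The mature miRNAs encoded at the deleted locus are shown because the seed defines the transcripts they can pair with. The deleted copies lie on chromosome 6 (GRCm38.p6, minus strand, RefSeq), at chr6:31062673-31062694 for miR-29a-3p and chr6:31063025-31063047 for miR-29b-3p. Whether these mice make miRNAs of the same seed from other loci was not examined. Capitals mark the seed, bases 2 to 8, which is the same in both.
mmu-miR-29a-3p: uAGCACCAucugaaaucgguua
mmu-miR-29b-3p: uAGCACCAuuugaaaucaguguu

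Total counts were 14231157 to 16100607 per MiR-29ab1-/- mouse without DSS and 20076719 to 23153149 after DSS. Lncpint, the long noncoding RNA at the miR-29ab1 locus, checked the genotype: it stood at 92.8 to 197 counts per 1000000 of the total (CPM without TMM) in MiR-29ab1-/- mice without DSS and 30.5 to 56.5 after DSS, against 0.261 to 1.26 in all WT mice. The submitters' tissue label names crypts of the small intestine, whereas the study describes colon tissue. The colon genes Car1 and Hoxa13 were read in all 7 mice (Hoxa13 48.7, 32.5, 35.6 and 30.6 CPM without DSS and 53.3, 55.6 and 57 after DSS), and of the small intestine list Apoa4, an apolipoprotein, had at most 1 read per mouse, whereas Fabp6 (2.42, 2.66, 3.58 and 5.07 CPM without DSS and 34.8, 11.5 and 15.6 after DSS), Alpi, Rbp2, Mttp and Slc5a1 (158 to 189.6 CPM) were read in all 7. The smooth muscle gene Myh11 had at most 3 reads per mouse, so muscle of the gut wall was nearly absent from both groups. The tables also differ outside the protein-coding genes: the share of counts on ribosomal RNA genes was 0.0818 to 0.273% without DSS and 0.000574 to 0.000774% after DSS. The first principal component, 61.1% of the variance, separated the mice of the 2 tables. Within groups the mice resembled each other (Pearson's r of log2 levels across genes 0.966 to 0.981 without DSS and 0.976 to 0.985 after DSS).

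Levels below are counts per 1000000 reads (CPM) after TMM scaling, listed in the order of mice 1 to 4 without DSS and of columns 1 to 3 of the DSS table. A log2 fold change is DSS minus no DSS with its standard error (SE), n = 4 and 3, and "adjusted p" is the Benjamini-Hochberg value of edgeR's quasi-likelihood test over all genes tested. Among the 20589 genes, 12033 passed the filter on low counts and were tested. At adjusted p under 0.05, 2711 (22.5%) were higher after DSS and 2781 (23.1%) lower, 45.6% in all, and the median log2 fold change of all genes tested was -0.03. Changes of at least 2-fold numbered 715 higher (5.94%) and 980 lower (8.14%). The CPM of the groups did not overlap for 2942 genes (24.4%) that were higher after DSS and 3091 (25.7%) that were lower. Without any scaling factor the calls were 1235 higher and 4646 lower and the median of all genes moved to -0.33, so small changes depend on the scaling. The calls also followed gene length: 38.3% of the shortest of 4 equal classes of genes were higher and 9.34% lower, against 10.4% and 40.9% of the longest class, and whether this comes with DSS or with the table cannot be told apart.

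**Figure D1:**
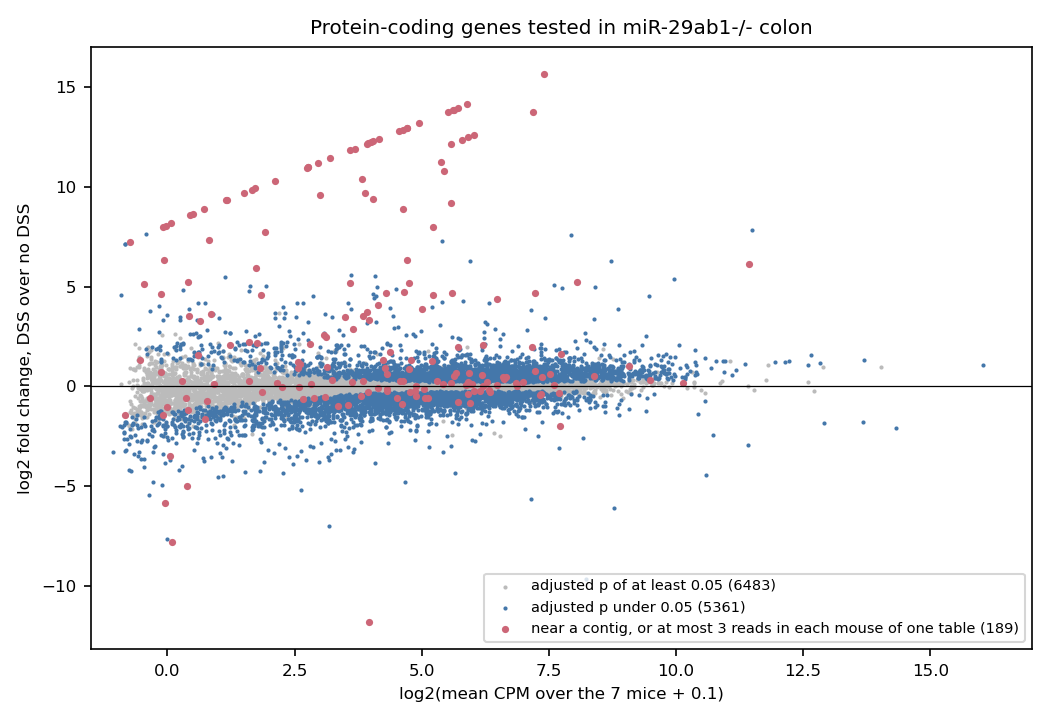
Mean level (x axis, log2 of the mean CPM over the 7 MiR-29ab1-/- mice) against the log2 fold change of DSS against no DSS (y axis) for the 12033 genes tested. Grey points were not called, blue points were called at adjusted p under 0.05, and red points are the 189 genes near a contig or with at most 3 reads in each mouse of one table. Called genes lie on both sides of 0, and the red points include the greatest changes in both directions.

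**Figure D2:**
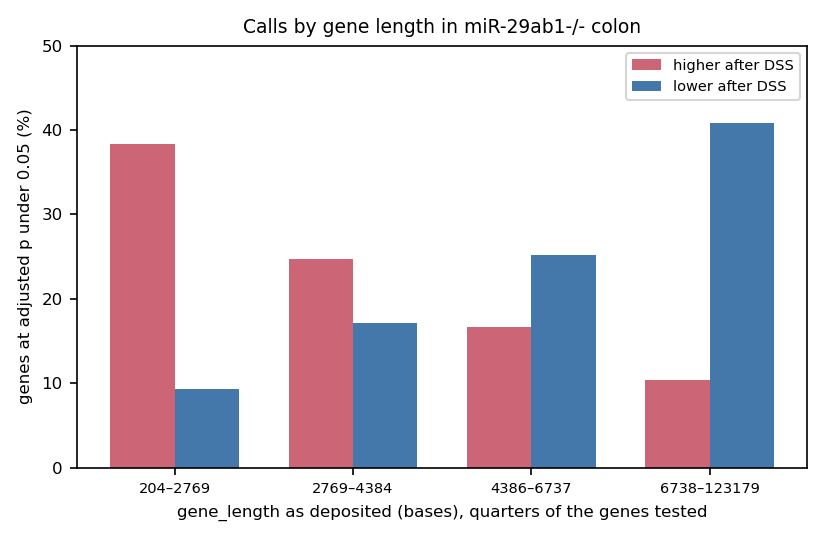
Share of tested genes called higher (red bars) and lower (blue bars) after DSS (y axis, percent) in 4 equal classes of gene length (x axis, bases, shortest to longest). The share called higher fell from 38.3% to 10.4% and the share called lower rose from 9.34% to 40.9%.

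The greatest increases were of genes that the table without DSS hardly counted at all. Arf4, a small GTPase of Golgi transport (chr14:26638074-26665084 in GRCm38 coordinates), had no read in any mouse without DSS and 440.5, 394 and 347 CPM after DSS, which is at least 1837-fold higher against a floor of 3 reads per library. The mean of Cdc42bpg after DSS was at least 646-fold, of Slc30a4 at least 570-fold and of Lats1 at least 336-fold above the same floor. The pattern was shared with WT mice: 55 of the 20589 genes had at most 3 reads in each of the 8 mice without DSS of both genotypes and at least 1 CPM after DSS. The table without DSS lists 114 transcripts on 39 patch or strain contigs that the DSS table does not list, and 43 of the 55 genes lie within 200 kb of a place where such a contig belongs. The reverse was rarer: 10 genes, with Med10 among them (25.9, 26.0, 27.5 and 29.7 CPM without DSS), had at most 3 reads in every DSS mouse. In all, 276 genes carry one of these marks, 189 of them tested. Without them 2602 genes were higher and 2759 lower, and genes with a mark are named below as such. Of the genes with the greatest increases outside these marks, 5 had a like step between tables, namely Atp5a1 (54.3, 54.8, 48.6 and 57.9 CPM without DSS and 2324, 2262 and 2219 after DSS), Vamp8, Chtf8, Tmem51 and Desi2, and the part of the table in their values was not tested.

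Muc2, the gel-forming mucin of goblet cells (chr7:141690340-141754693), is among the marked genes. It had 648 to 2629 reads per MiR-29ab1-/- mouse without DSS and 66937 to 179031 after DSS. In the mice without DSS, transcripts on a contig at the coordinates of Muc2 held 3466 to 9990 further reads, 25201 over the 4 mice against 5502 on Muc2 itself. The log2 fold change of 6.16 for Muc2 therefore compares different sets of transcripts and is not read as a change of the mucin.

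The genes that moved furthest without a mark included genes of defence and of the early stress response and, in the other direction, secretory products of the crypt. Reg3b, a bactericidal lectin of the epithelium (chr6:78370657-78373466), stood at 1.62, 29.6, 39.0 and 45.3 CPM without DSS and 3349.6, 16194 and 539 after DSS. All 3 DSS mice were above all 4 others, and DSS mouse 2 was highest and DSS mouse 3 lowest among them (log2 fold change 7.86 ± 1.59, edgeR adjusted p = 0.00822). Lrg1, a secreted glycoprotein of the acute phase response, was at 0.269, 0.619, 0.377 and 1.00 CPM without DSS and 48.6, 22.6 and 11.1 after DSS (log2 fold change 5.59 ± 0.63, edgeR adjusted p = 0.000454). Clca4b, a calcium-activated chloride channel regulator of surface colonocytes, rose from 2.49, 14, 27.2 and 8.0 to 703, 492 and 119.8 CPM (log2 fold change 5.08 ± 0.92, edgeR adjusted p = 0.00542). Among the greatest unmarked decreases were those of Mptx2, Trf, Itln1, Pla2g4c, Nptx1, Reg4, Gm38394, Prelp, Ascl2 and Tshz2. Gm38394 had log2 fold changes of -4.34 in MiR-29ab1-/- and -4.54 in WT mice, and Tshz2 of -3.71 and -4.10. The part of the table in the values of these 2 genes was not tested. Mptx2, a mucosal pentraxin, was at 18.7, 1273, 11.1 and 808 CPM without DSS and 0.365, 0.251 and 1.22 after DSS. The mice without DSS differed widely from each other, and its call was lost when mouse 4 without DSS or any single DSS mouse was left out (edgeR adjusted p = 0.0604 to 0.0919). Trf, transferrin, fell from 14.3, 14.1, 8.61 and 25.4 to 0.243, 0.0627 and 0.0489 CPM (log2 fold change -7.00 ± 0.59, edgeR adjusted p = 8.03e-05). Pla2g4c, a cytosolic phospholipase, stood at 286, 77.1, 250.0 and 360.0 CPM without DSS and 2.68, 1.88 and 9.78 after DSS (log2 fold change -5.62 ± 0.85, edgeR adjusted p = 0.00268), and Nptx1 lost its call without DSS mouse 1 (edgeR adjusted p = 0.050003).

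**Figure D3:**
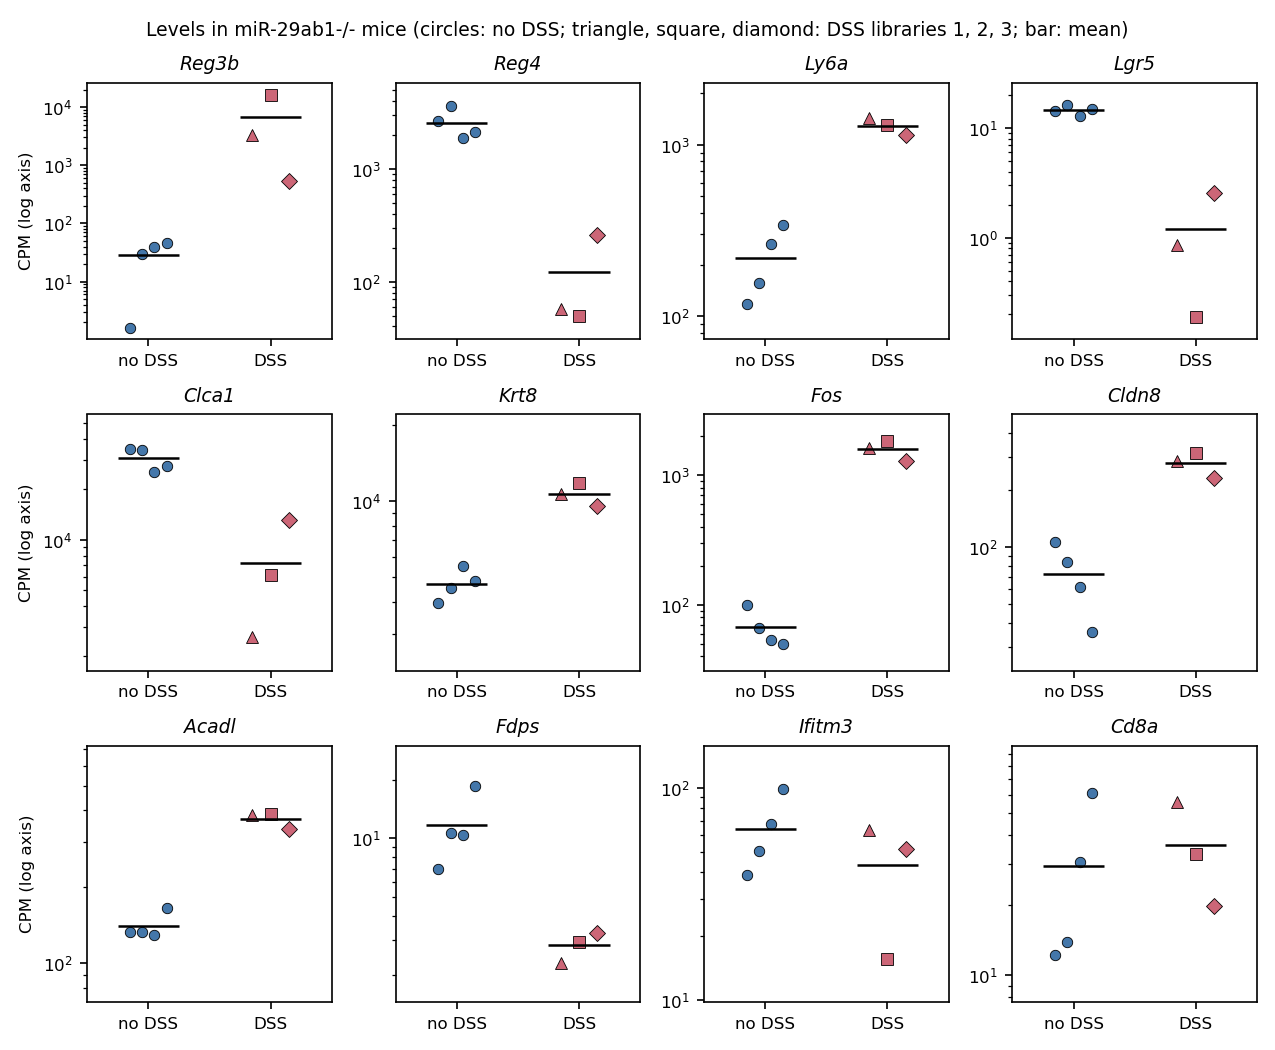
CPM per mouse (y axis, log scale, a range for each panel) of 12 genes in MiR-29ab1-/- mice without DSS (4 circles) and after DSS (triangle, square and diamond for DSS mice 1, 2 and 3), with a bar at each group mean. Reg3b, Fos, Ly6a, Krt8, Cldn8 and Acadl are higher in every DSS mouse, Reg4, Lgr5, Clca1 and Fdps lower in every DSS mouse, and the groups overlap for Ifitm3 and Cd8a.

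Immediate early genes, which are transcribed within minutes of a stress or growth signal, rose together. Of 17 tested, 14 were higher and 0 lower, with a median log2 fold change of 2.96 against -0.03 for all genes. Egr2, a member that carries a mark, had no read without DSS and is at least 35.0-fold higher against the floor, and with Egr2 at that bound the median remained 2.96. Fos, a subunit of the AP-1 transcription factor (chr12:85473890-85477273), stood at 99.0, 65.7, 53.6 and 49.4 CPM without DSS and 1609, 1828 and 1287 after DSS (log2 fold change 4.56 ± 0.26, edgeR adjusted p = 8.49e-06). Its partner Jun was at 95.7, 61.2, 54.8 and 55.8 CPM without DSS and 1013, 1154 and 824 after DSS (log2 fold change 3.90 ± 0.22, edgeR adjusted p = 6.57e-06). Neither gene showed any overlap between groups. Fosb (5.39, 3.35, 1.32 and 1.64 CPM without DSS and 722, 701 and 279 after DSS) had the greatest fitted change of the members without a mark (log2 fold change 7.6 ± 0.60, edgeR adjusted p = 0.000196). Egr1, a zinc finger factor, rose by 4.97 and Atf3, a factor of the stress response, by 4.94 on the log2 scale. Feedback regulators rose as well: Zfp36, which shortens cytokine mRNAs, was at 66.7, 67.6, 62.7 and 70.8 CPM without DSS and 716, 904 and 465 after DSS, and Btg2, an inhibitor of proliferation, rose by 2.21 on the log2 scale. In WT mice 14 of the 17 were higher too, with a median of 2.72.

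Antimicrobial and alarm genes of the epithelium moved in both directions. Of 24 tested, 13 were higher and 5 lower (median 1.35). Reg3g, a lectin against Gram-positive bacteria, stood at 2.90, 14.2, 21.1 and 11.4 CPM without DSS and 555, 2168 and 169 after DSS (log2 fold change 6.27 ± 1.09, edgeR adjusted p = 0.00467). Il18, an epithelial alarm cytokine, was at 51.9, 21.4, 27.7 and 17.6 CPM without DSS and 175, 230.5 and 152 after DSS (log2 fold change 2.65 ± 0.38, edgeR adjusted p = 0.00168). The DSS mice were above the others for both. S100a9, a calprotectin subunit of neutrophils and inflamed epithelium, was at 0.269, 0, 0 and 2.57 CPM without DSS and 14.1, 21.3 and 1.86 after DSS, where DSS mouse 3 lay below mouse 4 without DSS. Its call (log2 fold change 4.17 ± 1.39, edgeR adjusted p = 0.0483) was lost when any 1 of mice 1 to 3 without DSS or DSS mice 1 or 2 was left out (edgeR adjusted p = 0.0872 to 0.141). The members that fell were secretory: Itln1, a lectin that binds microbial sugars, went from 330.1, 1326, 192 and 1194 to 3.35, 3.70 and 26.4 CPM (log2 fold change -6.07 ± 1.27, edgeR adjusted p = 0.00944). Reg4, a marker of deep crypt secretory cells, stood at 2686, 3637, 1903 and 2134 CPM without DSS and 56.7, 49.1 and 257 after DSS (log2 fold change -4.42 ± 0.75, edgeR adjusted p = 0.00361). Ang4, an antimicrobial ribonuclease, and Retnlb, a goblet cell resistin-like protein, fell by 2.93 and 2.43 on the log2 scale; without DSS mouse 2 the edgeR adjusted p of Ang4 was 0.0663. Pigr, which carries IgA across the epithelium, overlapped between groups (8468, 7145, 7229 and 5839.6 CPM without DSS and 5478, 5791 and 7117 after DSS).

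Genes of the regenerative epithelium moved up, although some members are markers of progenitors. Of 20 tested, 13 were higher and 2 lower, with a median of 1.37. Ly6a, which marks regenerating colon epithelium and is also carried by some leukocytes, stood at 118, 158, 265 and 339 CPM without DSS and 1429, 1299 and 1139 after DSS. The DSS mice were similar to each other and above all others (log2 fold change 2.55 ± 0.35, edgeR adjusted p = 0.000986). Areg, an EGF receptor ligand, was at 9.29, 19.0, 7.61 and 2.29 CPM without DSS and 185, 246 and 90.1 after DSS (log2 fold change 4.17 ± 0.66, edgeR adjusted p = 0.00311). Ccn1, a matricellular target of YAP, was at 3.37, 2.79, 2.70 and 2.64 CPM without DSS and 50.8, 66.9 and 15.3 after DSS, with DSS mouse 3 the lowest of the treated mice (log2 fold change 3.94 ± 0.49, edgeR adjusted p = 0.000847). Clu, clusterin, rose from 2.56, 2.17, 0.943 and 1.93 to 8.03, 7.27 and 6.26 CPM (log2 fold change 1.92 ± 0.32, edgeR adjusted p = 0.00125), and Ly6d by 3.67 on the log2 scale. The 2 that fell were Cd24a, a surface glycoprotein of progenitors and secretory cells (log2 fold change -1.45), and Hmga2, a chromatin protein (-1.10).

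Crypt stem cell and Wnt target genes fell. Of 18 tested, 15 were lower and 1 higher (median -1.39), and 11 were at least 2-fold lower. Lgr5, the R-spondin receptor that defines crypt base stem cells (chr10:115450311-115587780), stood at 14.4, 16.1, 12.8 and 14.8 CPM without DSS and 0.852, 0.188 and 2.54 after DSS. The 4 mice without DSS were alike and all DSS mice were below them, the third the least (log2 fold change -3.54 ± 0.59, edgeR adjusted p = 0.00211). Ascl2, the transcription factor that sustains this state, was at 13.4, 12.2, 11.4 and 15 CPM without DSS and 0.183, 0.125 and 2.30 after DSS (log2 fold change -3.81 ± 0.79, edgeR adjusted p = 0.00647). Axin2, a feedback target of Wnt signaling, went from 70.0, 66.7, 30.5 and 58.3 to 3.04, 2.32 and 14.9 CPM (log2 fold change -3.03 ± 0.72, edgeR adjusted p = 0.0149). Smoc2, Tnfrsf19 and Ephb3 had log2 fold changes of -2.81, -3.17 and -2.98. The member that rose was Prom1 (299, 291, 283 and 219 CPM without DSS and 527, 676 and 403 after DSS), which epithelial cells beyond the stem cell also carry. In bulk tissue, fewer cells of a type and less RNA per cell cannot be told apart, here and in all that follows.

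Proliferation genes were lower as well. Of 29 tested, 15 were lower and 1 higher (median -0.66). Mki67, a protein of dividing cells, was at 168, 185, 232 and 176 CPM without DSS and 126, 82.0 and 137 after DSS, and no DSS mouse reached the level of a mouse without DSS (log2 fold change -0.72 ± 0.19, edgeR adjusted p = 0.0119). Plk1, a mitotic kinase, fell by 1.24, E2f1, which drives S phase genes, by 1.33 and Cdc6, a replication licensing factor, by 1.32 on the log2 scale. Ccnd1, cyclin D1, was the member that rose (65.3, 79.2, 79.5 and 75.1 CPM without DSS and 122, 105 and 97.6 after DSS). Pcna, the replication clamp, overlapped between groups (90.2, 96.0, 112 and 83.6 CPM without DSS and 108, 99.5 and 85.2 after DSS), and its sign changed with the scaling. With library-specific offsets for gene length, chosen after seeing the data, Mki67 and Top2a were no longer called; the list then had 15 lower and 1 higher, not all of them the same genes.

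Secretory lineages went down in part. Of 25 goblet cell and mucus genes, 14 were lower and 5 higher (median -0.67). Their summed level was 60777 to 80053 CPM without DSS and 27037 to 50394 after DSS. The list and the sum include Muc2, for which the tables count different sets of transcripts, so the sum does not compare like with like. Clca1, a protease secreted into mucus, stood at 35088, 34552, 25279 and 27741 CPM without DSS and 2609, 6164 and 13045 after DSS. Each DSS mouse was below each mouse without DSS, and DSS mouse 3 was nearest to them (log2 fold change -2.08 ± 0.49, edgeR adjusted p = 0.00859). Zg16, a lectin of the mucus layer, rose instead (1964, 2076, 1755 and 1098 CPM without DSS and 2713, 4728 and 3983 after DSS), a call that the length offsets removed. Muc3, a membrane-bound mucin of enterocytes, was at 683, 1137, 879 and 835 CPM without DSS and 2138, 2051 and 2937 after DSS (log2 fold change 1.43 ± 0.19, edgeR adjusted p = 0.000417). Ern2, the endoplasmic reticulum stress sensor of goblet cells, fell from 218, 312, 189.5 and 228 to 67.3, 72.4 and 67.6 CPM.

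Tuft cell genes held 10 lower and 0 higher of 17 (median -0.81). Dclk1, a kinase that marks tuft cells, stood at 42.7, 61.0, 52.0 and 64.4 CPM without DSS and 19.2, 29.2 and 35.2 after DSS, and Trpm5, their cation channel, at 37.0, 55.3, 40.4 and 54.3 CPM without DSS and 16.7, 26.3 and 30.7 after DSS. For both, the highest DSS mouse lay below the lowest mouse without DSS. Pou2f3, the factor that specifies the lineage, fell by 1.41 and Plcb2 by 1.30 on the log2 scale. Without DSS mouse 1 the list held 6 lower. Of 25 enteroendocrine genes 4 were higher and 5 lower (median 0.32), shares no greater than the 22.5% and 23.1% of all genes tested, and when 1 mouse was left out these counts ran from 2 to 4 and from 1 to 5: 2 were higher without DSS mouse 2, and 2, 2, 2 and 1 were lower without mouse 1 without DSS and without DSS mice 1, 2 and 3. Tac1, the precursor of substance P, was at 4.92, 3.47, 7.61 and 3.07 CPM without DSS and 110.1, 142 and 22.8 after DSS (log2 fold change 4.26 ± 0.68, edgeR adjusted p = 0.00325). Chga and Chgb, granins of the secretory granule, overlapped (41.0, 33.1, 33.6 and 34.9 CPM without DSS and 35.8, 45.9 and 51.9 after DSS for Chga), with log2 fold changes of 0.32 and 0.18, neither called.

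General epithelial genes and most keratins rose, and transport genes of colonocytes were called in part. All 9 general epithelial genes tested were higher (median 0.85), as were 14 of 20 keratins and microvillus genes, with 1 lower (median 0.68). Krt8 stood at 3983, 4532, 5526 and 4841 CPM without DSS and 10685, 11790.5 and 9595 after DSS and Krt20, a keratin of differentiated surface cells, at 301, 551, 682 and 489 CPM without DSS and 1330.0, 1327 and 1153 after DSS. Both were higher in every DSS mouse (log2 fold change 1.18 ± 0.16, edgeR adjusted p = 0.000495 for Krt8). Lgals4, an epithelial galectin, went from 2602, 2893, 3136 and 2863 to 6564, 7530.5 and 6032 CPM. Of 26 colonocyte ion and water transport genes, 10 were higher and 3 lower (median 0.46): Slc26a3, the chloride-bicarbonate exchanger, was at 222, 295, 354 and 274 CPM without DSS and 458, 722 and 578 after DSS, whereas Cftr, the crypt chloride channel, was at 207, 189.5, 176 and 156 CPM without DSS and 102, 79.7 and 124 after DSS. Kcnq1, a potassium channel that supports chloride secretion, fell by 0.74 on the log2 scale. The water channel Aqp8 overlapped between groups (163, 214, 146 and 101 CPM without DSS and 159, 229 and 312 after DSS).

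Junction genes were mostly higher, with 16 higher and 3 lower of 26 (median 0.41), 1 lower without mouse 2 of the group without DSS or without DSS mouse 2 or 3. Cldn8, a sealing claudin of the distal colon, stood at 106, 83.6, 62.0 and 35.7 CPM without DSS and 283, 312 and 232 after DSS (log2 fold change 1.94 ± 0.34, edgeR adjusted p = 0.00325). Cldn4 and Cldn23 rose by 1.51 and 1.34 on the log2 scale. Cldn15, a pore-forming claudin of the crypt, was at 299.6, 240.4, 271 and 222 CPM without DSS and 106, 74.6 and 129.9 after DSS, with all DSS mice lower (log2 fold change -1.32 ± 0.19, edgeR adjusted p = 0.000658). Cdh1, E-cadherin, rose by 0.47 on the log2 scale, a call lost without a scaling factor. Tjp1 (104, 137, 123 and 139 CPM without DSS and 162, 181 and 137 after DSS) and Ocln (120.3, 104, 96.8 and 77.9 CPM without DSS and 104, 123 and 104 after DSS), scaffold and membrane proteins of the tight junction, did not pass the test, and the sign of Ocln changed without a scaling factor. Of the regional lists, 2 of 13 colon genes were higher (15.4%) and 0 lower (4 higher without mouse 1 of the group without DSS, 1 without mouse 4 or DSS mouse 2). Of 8 small intestine genes 3 were higher (37.5%) and 1 lower (12.5%), with 1 higher without mouse 1 of the group without DSS or without DSS mouse 3. Of all genes tested 22.5% were higher and 23.1% lower.

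**Figure D4:**
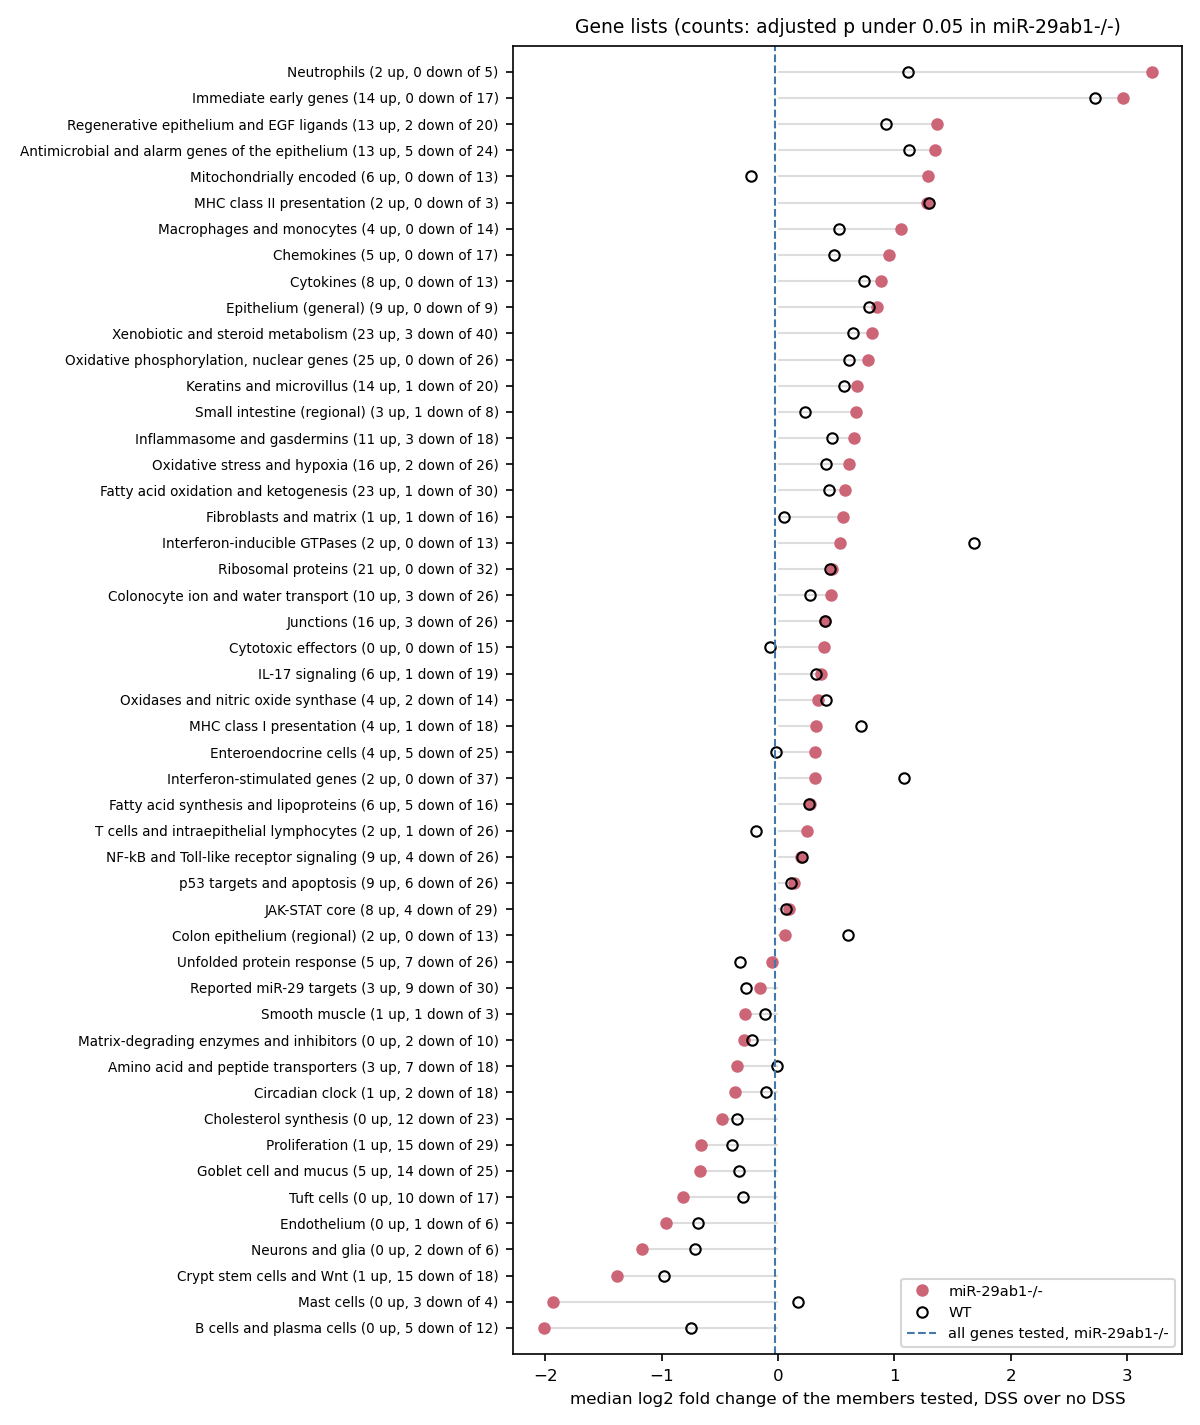
Median log2 fold change of DSS against no DSS (x axis) of the tested members of each gene list in MiR-29ab1-/- mice (filled) and WT mice (open), with the numbers called higher and lower in MiR-29ab1-/- mice beside each name and a dashed line at the median of all genes tested. Immediate early genes lie furthest to the right among lists of over 10 genes (2.96), and B cell genes furthest to the left (-2.01).

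Nuclear genes of mitochondrial respiration and fatty acid oxidation rose. Of 26 nuclear genes of oxidative phosphorylation, 25 were higher and 0 lower (median 0.77), and of 30 genes of fatty acid oxidation and ketogenesis 23 were higher and 1 lower (median 0.58). Cycs, cytochrome c, stood at 121, 149, 198 and 149 CPM without DSS and 549, 497 and 378 after DSS (log2 fold change 1.62 ± 0.18, edgeR adjusted p = 0.000196). Acadl, a long-chain acyl-CoA dehydrogenase, was at 133, 133, 129.7 and 164 CPM without DSS and 385, 388 and 338 after DSS (log2 fold change 1.40 ± 0.11, edgeR adjusted p = 3.47e-05). In both cases every DSS mouse was above every other mouse. Acsl1, which activates fatty acids, was the member that fell (57.6, 54.3, 43.8 and 49.4 CPM without DSS and 14, 14.5 and 21.1 after DSS). Genes encoded by the mitochondrial genome behaved less evenly: 6 of 13 were higher and 0 lower (median 1.29). The mitochondrial protein-coding share of all counts was 5.24 to 11.8% without DSS and 14.1, 19.2 and 7.13% in the DSS mice. mt-Co1, a subunit of cytochrome c oxidase, stood at 44100.0, 29187, 39779.8 and 68096 CPM without DSS and 97141, 144693 and 47553 after DSS, where DSS mouse 3 lay within the range of the mice without DSS. Only 1 of the 13 was called when any 1 of mice 1 to 3 without DSS or DSS mice 1 or 2 was left out, 11 without mouse 4 and 10 without DSS mouse 3. Ribosomal protein genes, which are short, had 21 higher and 0 lower of 32 (median 0.46), and 10 higher and 1 lower (median 0.17) with length offsets.

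Cholesterol synthesis genes fell and many detoxification genes rose. Of 23 cholesterol synthesis genes, 12 were lower and 0 higher (median -0.48), and 6 were lower without DSS mouse 1 and 6 without DSS mouse 2. Fdps, an enzyme of the isoprenoid steps, stood at 7.00, 10.7, 10.4 and 18.6 CPM without DSS and 2.31, 2.95 and 3.28 after DSS (log2 fold change -2.03 ± 0.33, edgeR adjusted p = 0.00113). Lss, an enzyme of the sterol steps, fell by 1.22 on the log2 scale. Fatty acid synthesis and lipoprotein genes held 6 higher and 5 lower of 16 (median 0.28): Fasn, fatty acid synthase, was at 324, 474, 459.5 and 497 CPM without DSS and 233, 206 and 245 after DSS, whereas Dgat2, which makes triglycerides, was at 23.8, 28.4, 28.1 and 38.9 CPM without DSS and 100.5, 100.3 and 65.0 after DSS. Mogat2 and Apob, of triglyceride export, rose by 2.24 and 1.37 on the log2 scale. Xenobiotic and steroid metabolism held 23 higher and 3 lower of 40 (median 0.81), with 5 lower without DSS mouse 3 and 1 without mouse 1, 2 or 4 of the group without DSS or DSS mouse 1 or 2. Sult1b1, a sulfotransferase, stood at 79.0, 77.7, 85.2 and 73.3 CPM without DSS and 274, 337 and 269.8 after DSS (log2 fold change 1.90 ± 0.11, edgeR adjusted p = 2.42e-06). Cyp2c55, a colonic cytochrome P450, was at 396, 703, 588 and 224 CPM without DSS and 1381, 1363 and 1614 after DSS, and Akr1b8, an aldo-keto reductase, at 27.9, 35.2, 39.0 and 28.3 CPM without DSS and 117, 155 and 107 after DSS. No DSS mouse overlapped with the other group for any of these. Amino acid and peptide transporters had 3 higher and 7 lower of 18 (median -0.36), with Slc6a14 higher (1.02 on the log2 scale) and Slc43a1 and Slc7a11, the cystine transporter, lower (-1.96 and -1.82).

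Cytokine transcripts were scarce, and those that passed the test were higher. Of 27 cytokine genes 13 were tested, of which 8 were higher and 0 lower (median 0.89). Il1b, a cytokine of activated myeloid cells, stood at 0.539, 0, 0.126 and 0.357 CPM without DSS and 9.56, 14.1 and 1.52 after DSS (log2 fold change 5.03 ± 0.95, edgeR adjusted p = 0.00391). Il34, a ligand of the macrophage receptor Csf1r, was at 1.14, 2.54, 2.20 and 3.79 CPM without DSS and 10.1, 19.8 and 7.04 after DSS (log2 fold change 2.35 ± 0.44, edgeR adjusted p = 0.00282). Tnf overlapped between groups (2.02, 3.53, 2.45 and 4.07 CPM without DSS and 9.92, 12.7 and 3.81 after DSS), and its call was lost without DSS mouse 2 (edgeR adjusted p = 0.0548). Ifng, the T cell and NK cell interferon, was at 0, 0.124, 0.440 and 1.86 CPM without DSS and 1.58, 1.07 and 0.685 after DSS, with a log2 fold change of 0.89 ± 0.97 (SE) that did not pass the test, and Tgfb1 was at 15.9, 11, 10.9 and 9.78 CPM without DSS and 9.19, 8.97 and 9.0 after DSS, not called. Il6 had 0 to 2 reads per mouse, and Il17a 0 to 1 without DSS and 1 to 3 after DSS, both below the filter.

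Chemokines held 5 higher (29.4%, against 22.5% of all genes tested) and 0 lower of 17 tested (median 0.95). Without mouse 4 of the group without DSS 8 were higher. Cxcl5, a neutrophil chemoattractant of the epithelium, stood at 0.202, 0.248, 0 and 0.286 CPM without DSS and 3.53, 5.52 and 1.27 after DSS (log2 fold change 4.18 ± 0.71, edgeR adjusted p = 0.00140). Cxcl1 (0.471, 0.434, 0.377 and 0.143 CPM without DSS and 4.26, 7.09 and 0.734 after DSS) and Cxcl16 (2.16, 1.67, 1.13 and 2.5 CPM without DSS and 11.6, 17.8 and 6.60 after DSS) were also higher in every DSS mouse. Cxcl2, a further neutrophil attractant below the filter, had 0, 3, 4 and 1 reads without DSS and 101, 143 and 12 after DSS, for which the two-sided exact permutation test gave p = 0.0571, the smallest that 3 against 4 mice allow. Of 19 IL-17 signaling genes 6 were higher (31.6%) and 1 lower (5.26%), with a median of 0.37. Those higher numbered 3, 2 and 3 without mouse 1 of the group without DSS, DSS mouse 1 and DSS mouse 2. The receptor Il17ra overlapped between groups (21.7, 23.3, 21.6 and 22.9 CPM without DSS and 21.8, 26.1 and 19.9 after DSS).

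Of 26 genes of NF-kB and Toll-like receptor signaling, 9 were higher (34.6%) and 4 lower (15.4%; median 0.20), against 22.5% and 23.1% of all genes tested. Tnfaip3, a feedback inhibitor of NF-kB, stood at 37.9, 42.9, 46.3 and 49.9 CPM without DSS and 118, 118 and 68.6 after DSS (log2 fold change 1.2 ± 0.19, edgeR adjusted p = 0.00124), and Nfkbia and Tlr2 rose by 0.83 and 1.12 on the log2 scale. Nod1 and Nod2, sensors of bacterial peptidoglycan, were lower (-1.10 and -0.89). JAK-STAT core genes held 8 higher (27.6%) and 4 lower (13.8%) of 29 (median 0.09), the higher share near that of all genes. Socs3, the feedback inhibitor induced by STAT3, was at 5.32, 12.4, 7.67 and 10.7 CPM without DSS and 48.0, 107 and 29.3 after DSS (log2 fold change 2.76 ± 0.50, edgeR adjusted p = 0.00449), and Stat3 itself at 128, 149, 128 and 145 CPM without DSS and 190.1, 213 and 172 after DSS. Ifngr1, a chain of the interferon gamma receptor, rose by 0.94, and Il6ra fell by 1.44 on the log2 scale.

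Interferon-stimulated genes held 2 higher (5.41%, against 22.5% of all genes tested) and 0 lower of 37 in MiR-29ab1-/- mice (median 0.32). The list held 7 higher without mouse 4, 4 without DSS mouse 2 and 1 without mouse 2 of the group without DSS or without DSS mouse 1. Irf1, a factor induced by interferon gamma, was one of the 2 (93.3, 107, 119 and 115 CPM without DSS and 181, 196 and 242 after DSS). Ifitm3, an antiviral membrane protein, was at 38.9, 50.2, 67.4 and 98.3 CPM without DSS and 63.5, 15.6 and 51.3 after DSS, not called. Interferon-inducible GTPases held 2 higher (15.4%) and 0 lower of 13, 6 higher without mouse 4. Both of the 2, Irgm1 and Tgtp2, carry a mark of the tables, as do 3 of the 13 in all. In WT mice the medians of these lists were 1.09 and 1.68, with 9 and 4 higher, Irgm1 and Tgtp2 among the 4. No gene of either list had an unadjusted p under 0.05 for the difference between the genotypes. MHC class I presentation held 4 higher (22.2%, against 22.5% of all genes tested) and 1 lower of 18 (median 0.33), 8 higher without mouse 4. Psme2, a proteasome activator, stood at 66.0, 61.6, 96.7 and 81.8 CPM without DSS and 242, 203 and 204 after DSS (log2 fold change 1.5 ± 0.16, edgeR adjusted p = 0.000145). Of 3 tested genes of MHC class II presentation, the proteases Ctss (127, 125, 129 and 156 CPM without DSS and 309, 347 and 323 after DSS) and Lgmn were higher, and the transactivator Ciita was not called.

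T cell transcripts varied widely among the mice without DSS. Of 26 T cell and intraepithelial lymphocyte genes 2 were higher (7.69%) and 1 lower (3.85%; median 0.25), and 6 were higher without mouse 4. Of all genes tested 22.5% were higher and 23.1% lower. Cd8a, the coreceptor of cytotoxic T cells, stood at 12.2, 13.9, 30.9 and 60.8 CPM without DSS and 56.0, 33.3 and 19.9 after DSS. Mouse 4 without DSS was the highest and mice 1 and 2 the lowest, so the DSS mice lay within the range of the other group (log2 fold change 0.31 ± 0.65, edgeR adjusted p = 0.736). Cd3e (3.97, 4.21, 10.3 and 21.9 CPM without DSS and 15.5, 8.59 and 6.46 after DSS), Lck (6.20, 9.29, 19.4 and 36.3 CPM without DSS and 31.2, 20.01 and 12.9 after DSS) and Fyn (11.2, 11, 16.6 and 36.8 CPM without DSS and 20.9, 15 and 11.2 after DSS), of T cell receptor signaling, showed the same spread. The members that rose were the costimulatory receptors Cd28 (0, 0.124, 0.0629 and 0.429 CPM without DSS and 3.04, 1.82 and 0.734 after DSS) and Icos, at low levels. Of 15 cytotoxic effector genes, 0 were called in either direction by edgeR or DESeq2 and 0 had an unadjusted edgeR p under 0.05, while 0 to 3 were higher when a mouse was left out: Gzmb, granzyme B, was at 5.79, 4.77, 19.7 and 54.3 CPM without DSS and 31.9, 36.7 and 23.9 after DSS, and the factors Tbx21 and Eomes at 1.41, 1.12, 3.46 and 6.00 CPM without DSS and 4.14, 3.95 and 2.45 after DSS and 0.539, 0.310, 0.754 and 2.14 CPM without DSS and 1.83, 0.690 and 0.880 after DSS.

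A minority of the myeloid genes were called. Of 20 neutrophil genes only 5 were tested, 2 of them higher (median 3.21), 1 without mouse 1, 2 or 3 of the group without DSS or DSS mouse 1 or 2, and 10 without DSS mouse 3, when more members passed the filter. Their summed level was mostly Ly6g: it was 13.9 to 30.0 CPM without DSS and 108 to 299.9 after DSS, and without Ly6g it was 0.943, 0.248, 0.314 and 10.6 CPM without DSS and 39.4, 60.3 and 4.74 after DSS, where DSS mouse 3 lay below mouse 4. Ly6g, a surface protein of neutrophils, stood at 12.9, 14.8, 19.7 and 19.4 CPM without DSS and 122, 239.6 and 103 after DSS (log2 fold change 3.21 ± 0.32, edgeR adjusted p = 0.000322). Csf3r, the receptor of the neutrophil growth factor and below the filter, had 2, 0, 2 and 4 reads without DSS and 45, 68 and 5 after DSS. Of 14 macrophage and monocyte genes 4 were higher (28.6%, against 22.5% of all genes tested) and 0 lower (median 1.05), 7 without mouse 4 and 2 without DSS mouse 2. C1qc, a complement subunit of macrophages, was at 0.539, 0.0619, 0.251 and 1.07 CPM without DSS and 2.68, 4.26 and 1.32 after DSS, and Mrc1, the mannose receptor, at 0.404, 1.24, 0.817 and 1.00 CPM without DSS and 2.5, 4.77 and 1.32 after DSS; without DSS mouse 2 neither was called (edgeR adjusted p = 0.0674 and 0.118). B cell and plasma cell genes held 5 lower and 0 higher of 12 (median -2.01), and 3, 3, 3 and 2 lower without mice 2 and 4 of the group without DSS and DSS mice 2 and 3. Pax5, the B cell factor, was at 0.875, 0.681, 0.566 and 2.57 CPM without DSS and 0.122, 0.251 and 0.0489 after DSS (log2 fold change -3.04 ± 0.79, edgeR adjusted p = 0.0115).

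Of the mast cell list 4 genes were tested, 3 of which were lower. Kit, which mast cells share with interstitial cells of Cajal and crypt secretory cells, stood at 229, 229, 154 and 165 CPM without DSS and 44.3, 37.1 and 52.1 after DSS (log2 fold change -2.12 ± 0.19, edgeR adjusted p = 8.87e-05), and Cma1, mast cell chymase, at 7.48, 11, 4.97 and 4.93 CPM without DSS and 0.426, 0.188 and 2.15 after DSS. Both were lower in every DSS mouse. Of the members below the filter, Hdc went the other way, with 7, 7, 3 and 5 reads without DSS and 20, 58 and 10 after DSS. Fcer1a, also below the filter, had 1, 3, 9 and 1 reads without DSS and 0, 0 and 1 after DSS. Fibroblast and matrix genes held 1 higher and 1 lower of 16 (6.25% each, median 0.56), 4 higher without mouse 1. Fn1, fibronectin, fell from 18.5, 25.5, 15.1 and 21.6 to 1.77, 3.01 and 1.47 CPM (log2 fold change -3.29 ± 0.29, edgeR adjusted p = 6.35e-05), while Col3a1, a fibrillar collagen, overlapped (14.5, 3.41, 2.14 and 8.93 CPM without DSS and 19.5, 20.3 and 8.90 after DSS). Of 6 endothelial genes 1 was lower (16.7%), Vwf (14.4, 11.8, 12.1 and 12.9 CPM without DSS and 2.25, 2.63 and 5.92 after DSS). Of 6 neural and glial genes 2 were lower (33.3%), and of 3 smooth muscle genes 1 was higher and 1 lower. Matrix-degrading enzymes and inhibitors held 2 lower and 0 higher of 10; 4 were higher without DSS mouse 3 and 4 lower without mouse 4. Mmp7, matrilysin, was at 5.05, 9.17, 8.80 and 12.1 CPM without DSS and 4.08, 3.32 and 4.11 after DSS.

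Oxidant and stress genes changed member by member. Of 14 oxidases and nitric oxide synthase genes 4 were higher (28.6%) and 2 lower (14.3%), with a median of 0.34. Of all genes tested 22.5% were higher and 23.1% lower. Of the list 1 was lower without mouse 2 of the group without DSS or without DSS mouse 2 or 3. Nox1, the crypt NADPH oxidase, stood at 87.7, 77.4, 84.5 and 27.6 CPM without DSS and 10.8, 7.65 and 18 after DSS, whereas Duoxa2, the maturation factor of the surface oxidase Duox2, was at 42.2, 45.7, 38.1 and 27.4 CPM without DSS and 102, 129 and 55.9 after DSS. Ido1, which degrades tryptophan, and Arg2 rose by 2.03 and 2.10 on the log2 scale. Of 26 oxidative stress and hypoxia genes 16 were higher and 2 lower (median 0.61; 1 lower without mouse 2 of the group without DSS or without DSS mouse 1 or 3), with Gpx1, a glutathione peroxidase, at 263, 217, 255 and 206 CPM without DSS and 602, 655 and 505 after DSS and the metallothionein Mt1 at 91.3, 79.5, 59.7 and 148 CPM without DSS and 239.5, 516 and 256 after DSS. Both were higher in every DSS mouse. Unfolded protein response genes held 5 higher (19.2%) and 7 lower (26.9%) of 26 (median -0.05), 4 lower without DSS mouse 1 or 2. These shares were near the 22.5% and 23.1% of all genes tested. Ppp1r15a, which restores translation after stress, was at 13.0, 9.91, 6.79 and 8.5 CPM without DSS and 49.97, 81.7 and 34.6 after DSS (log2 fold change 2.53 ± 0.32, edgeR adjusted p = 0.000649).

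Of 26 p53 and apoptosis genes 9 were higher (34.6%) and 6 lower (23.1%), against 22.5% and 23.1% of all genes tested (median 0.13). Eda2r, a p53 target receptor, fell by 2.96, and Bcl2, an inhibitor of apoptosis, by 1.26 on the log2 scale. Inflammasome and gasdermin genes held 11 higher and 3 lower of 18 (median 0.65). Nlrp6, an inflammasome sensor of the epithelium, stood at 203, 234, 321 and 305 CPM without DSS and 395, 389 and 449.5 after DSS, P2rx7, the ATP-gated channel, at 39.9, 34.9, 34.2 and 37.2 CPM without DSS and 20.5, 15.9 and 16.4 after DSS and Naip6, a sensor of bacterial proteins, at 193, 249.9, 158 and 216 CPM without DSS and 114, 141 and 112 after DSS. The groups did not overlap for these 3, with Nlrp6 higher and the others lower after DSS, and Nlrp6 was not called without a scaling factor. Circadian clock genes held 1 higher (5.56%) and 2 lower (11.1%) of 18 (median -0.37), 1 lower without any 1 DSS mouse. These shares were below those of all genes tested. Per2, a clock repressor, was at 25.7, 30.5, 26.8 and 68.1 CPM without DSS and 11.1, 11.2 and 11.7 after DSS, with mouse 4 apart from the other mice without DSS. The 1 replication-dependent histone gene tested was higher.

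Genes reported in the literature as targets of miR-29 were compared with the rest of the transcriptome although neither group carries miR-29a or miR-29b-1. Of 30 tested, 3 were higher (10%) and 9 lower (30%), against 22.5% and 23.1% of all genes tested. Their median was -0.15, against -0.03 for all genes. With length offsets 5 were higher and 6 lower (median 0.03). Dnmt3a, a DNA methyltransferase, stood at 79.7, 80.1, 73.7 and 79.9 CPM without DSS and 44.5, 46.2 and 52.2 after DSS. Cdk6, a cyclin-dependent kinase, was at 85, 82.5, 71.6 and 90.6 CPM without DSS and 26.8, 20.8 and 32.8 after DSS, and Zfp36l1, an mRNA decay factor, fell by 1.42 on the log2 scale. These 3 were lower in every DSS mouse. Mcl1, an apoptosis inhibitor, was at 364, 394, 385 and 343 CPM without DSS and 564, 699 and 539.7 after DSS and Cdc42, a small GTPase, at 255, 259, 299 and 264 CPM without DSS and 548, 576 and 468 after DSS, both higher in every DSS mouse. Ifng and Col3a1, also on this list, were not called. Of further genes that the study names, Meis3 was at 4.24, 5.64, 5.28 and 5.93 CPM without DSS and 7.97, 9.09 and 8.31 after DSS, called (log2 fold change 0.68 ± 0.19, edgeR adjusted p = 0.0164) but not without DSS mouse 2 (edgeR adjusted p = 0.0523), Sult1d1 rose by 1.05 on the log2 scale, and Mov10 was at 66.2, 70.9, 68.6 and 81.3 CPM without DSS and 43.0, 53.6 and 78.9 after DSS, not called.

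The 3 DSS mice were not equally far from the mice without DSS. Of the 1695 genes called at 2-fold or more, DSS mouse 3 was the DSS mouse nearest to the mean of the mice without DSS for 1000 (59.0%), mouse 1 for 408 (24.1%) and mouse 2 for 287 (16.9%). Without the marked genes these were 960, 375 and 257 of 1592. DSS mouse 3 had the lowest Reg3b, Areg, Il1b and Cxcl5 and the highest Lgr5, Ascl2 and Clca1 of the treated mice. It also had the lowest mitochondrial share (7.13%), and DSS mouse 2, with the highest Reg3b, had the highest (19.2%) and the greatest share of counts in its 10 most abundant genes (22.3%). The part of the mitochondrial share in these differences was not tested.

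**Figure D5:**
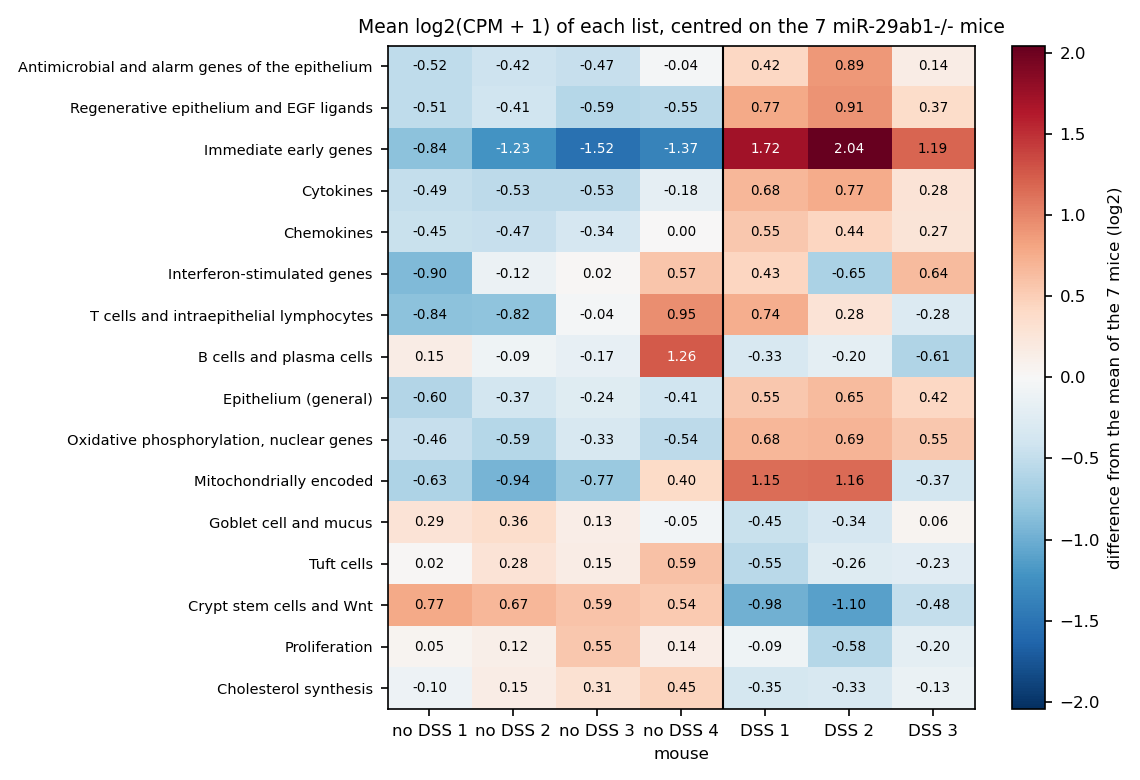
Mean log2(CPM + 1) of the members of 16 gene lists (rows) in each MiR-29ab1-/- mouse (columns, 4 without DSS and 3 after DSS); colour and number give the difference from the mean over the 7 mice. Immediate early, antimicrobial and regenerative lists are above the mean in the DSS mice and stem cell genes below it, with DSS mouse 3 the nearest to 0 among the DSS mice, and mouse 4 without DSS stands out in the lymphocyte lists.

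The same contrast in WT mice gave 2431 genes higher (19.4%) and 2247 lower (17.9%) of 12529 tested in a model of all 14 mice. It carries the same difference between tables, so a like direction in both genotypes says nothing of DSS alone. Of the 5492 genes called in MiR-29ab1-/- mice 5447 (99.2%) had the same sign in WT mice. For 1450 of the 1695 genes with a 2-fold change (85.5%) the change was greater in MiR-29ab1-/- than in WT mice, which the choice of these genes in MiR-29ab1-/- mice favours. For Reg3b the log2 fold change was 7.86 in MiR-29ab1-/- and 3.98 in WT mice, for Lgr5 -3.54 and -2.64, and for Fos 4.56 and 4.45.

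The difference between the genotypes in their DSS response, from which an equal difference between tables on the log scale drops out, was tested as an interaction. No gene passed at adjusted p under 0.05 by edgeR's quasi-likelihood test (smallest 0.977) or by DESeq2, and 502 (4.01%) had an unadjusted p under 0.05 by edgeR and 545 by DESeq2. The median SE of the interaction was 0.22 on the log2 scale. Without DSS mouse 3, 1 gene passed, Ascl2, and 1181 had an unadjusted p under 0.05, against 296 without DSS mouse 1 and 234 without DSS mouse 2. The smallest unadjusted p was that of Akr1b8, whose log2 fold change was 1.95 in MiR-29ab1-/- and 0.97 in WT mice (interaction 0.99 ± 0.21, unadjusted p = 0.000298). Next among the genes with a greater value in MiR-29ab1-/- mice were Rab3c (2.67 ± 0.63, unadjusted p = 0.000750), 2610528A11Rik (0.68 ± 0.16, unadjusted p = 0.000799), Lrrc1 (0.44 ± 0.12, unadjusted p = 0.00258), mt-Nd3 (2.05 ± 0.56, unadjusted p = 0.00269) and Paqr5 (0.45 ± 0.13, unadjusted p = 0.00299). Mean CPM of Akr1b8 was 32.6 in MiR-29ab1-/- and 56.97 in WT mice without DSS, and 126.6 and 111.9 after DSS. 2610528A11Rik stood at 146 and 224, then 583 and 561, and Paqr5 at 35.7 and 51.1, then 79.9 and 84.3. These genes differed more between genotypes without DSS than after DSS, Lrrc1 and mt-Nd3 more after DSS. Rab3c was below the filter in MiR-29ab1-/- mice (mean 0.47 and 0.78 CPM) and fell from 1.44 to 0.37 in WT mice. Among the genes with a lower value in MiR-29ab1-/- mice were Ptpn14, a tyrosine phosphatase that restrains YAP (-1.38 ± 0.34, unadjusted p = 0.00111), Tppp3 (-1.16 ± 0.31, unadjusted p = 0.00236), Dexi (-0.62 ± 0.17, unadjusted p = 0.00246), Adamts9, a matrix protease (-2.99 ± 0.82, unadjusted p = 0.00251), Cma1 (-2.95 ± 0.82, unadjusted p = 0.00273) and Ephb3, the receptor that positions crypt cells (-1.19 ± 0.33, unadjusted p = 0.00279). Mean CPM of Cma1 was 7.1 in MiR-29ab1-/- and 1.89 in WT mice without DSS, and 0.92 and 1.98 after DSS. Adamts9 stood at 0.75 and 0.204, then 0.44 and 1.004. Both genes were at low levels and differed more between genotypes without DSS than after DSS. Ptpn14, Tppp3, Dexi and Ephb3 differed more after DSS. Of the lists, mitochondrially encoded genes held 11 of 13 members with an unadjusted p under 0.05 (median log2 fold change 1.29 in MiR-29ab1-/- and -0.24 in WT mice), and crypt stem cell and Wnt genes 6 of 18; the mitochondrial genes are transcribed together, and their level was highest in DSS mice 1 and 2.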

How the data were processed

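RNA was sequenced from 14 mice: MiR-29ab1-/- without DSS (4) and after DSS (3), and WT without DSS (4) and after DSS (3). RNA was extracted with TRIzol and libraries were made with a directional kit. Per the labels, the authors used HISAT2 and DESeq2, with no versions given; the counter and genome build are not given in the sources used here, but 20499 of 20512 genes matched by ID had the chromosome, start and end of GENCODE vM21 (GRCm38). The deposited values used here are whole-number read counts per gene, not normalized, in one table for mice without DSS and one for DSS mice. The authors' FPKM columns and their own comparison columns (fold changes and p-values) were not used. Groups came from the sample labels. The DSS columns are numbered 1 to 3 and the titles of these mice 5 to 7, so these columns were assigned to their group only. The authors excluded 1 WT and 1 MiR-29ab1-/- sample, not analysed here.

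The tables were joined on gene ID, keeping protein-coding genes of equal length. The main test was edgeR 4.0.16 (R 4.3.3; filterByExpr, TMM, robust quasi-likelihood, Benjamini-Hochberg) over the 7 MiR-29ab1-/- mice. The interaction used all 14 mice. Alternatives were DESeq2 1.42.0, other scalings and filters, other gene sets, glmTreat, each mouse left out, and 2 chosen after seeing the data (without marked genes, and offsets for gene length). The main fit and the interaction fit were tested on simulated data without a batch or length effect. The alternatives were not tested in this way. Depth was 14231157 to 23153149 counts per MiR-29ab1-/- mouse, so 3 reads correspond to 0.130 to 0.211 CPM of all counts; this floor covers counting error only. No libraries were duplicates by a chi-square comparison. The labels number each mouse separately but name no litter or date, so p-values measure only the spread between these mice. Counts of near-identical genes (Reg3b and Reg3g, Ly6 genes) may share reads.

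Named genes were, over all genes tested, the 12 higher and 12 lower with the greatest fold change among called genes without overlap and with at least 10 CPM in the higher group; of each of 50 gene lists the first members, those with the greatest changes and those the study names; and, for the interaction, the 6 in each direction with the smallest p. A few genes outside these rules were named after their values were seen. A few genes that the rules name are not reported here. The rule, the lists and the tests were chosen with earlier results of these data known.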

Additional observations from a re-analysis of the deposited data

Results flagged for a closer look

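In the 4 MiR-29ab1-/- mice without DSS, 14 of 256 values checked (5.47%) had 1 mouse far from the other 3 by Dixon's test, and chance flags about 1 in 20. Of these, 8 were of mouse 4: S100a9 (2.57 CPM), Acadl (164), Gsta4 (40.3), Ctss (156), Pax5 (2.57), Per2 (68.1), and the summed levels of the MHC class II presentation list (207 CPM) and of the B cell and plasma cell list (83.9 CPM), all above the other mice. The remaining values set apart from the other 3 mice were Jun (95.7 CPM) and Vil1 (530 CPM) in mouse 1, Apob (146 CPM) in mouse 2, and Top2a (193 CPM), Ndufs1 (168 CPM) and Dnmt3a (73.7 CPM) in mouse 3.

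Outside the genes compared, contig transcripts at the coordinates of Muc2 held 25201 reads over the 4 MiR-29ab1-/- mice without DSS; the DSS table lists no such contig.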

How the results depend on the processing

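The counts of genes higher and lower after DSS stayed within 1.5 times of 2711 and 2781 under DESeq2 (2910 and 2770), RLE and upper-quartile scaling, other filters and gene sets, a model of all 14 mice, and each mouse left out (2310 to 2814 higher and 1941 to 2621 lower). They did not without a scaling factor (1235 and 4646; at 2-fold 438 and 1775), nor at 2-fold with glmTreat, which tests against that fold rather than 0 (241 and 169). The interaction gave 0 genes under every setting except without DSS mouse 3 (1 gene), a range of 0 to 1 with a mouse left out. With a replicate block on the WT and MiR-29ab1-/- mouse numbers it gave 0 genes, and 476 at an unadjusted p under 0.05. The deviations of mice of one number in the 2 genotypes without DSS correlated at -0.02, 0.19, -0.16 and -0.19. These values show no pairing by number, but so few correlations cannot exclude one. No paired analysis was possible within MiR-29ab1-/- mice because the groups with and without DSS share no number.

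Of 200 genes followed, 149 kept their sign and their side of the threshold under all alternatives. Those whose sign turned were all uncalled. Without a scaling factor the log2 fold change was -0.28 for Pcna, -0.14 for Chgb, -0.17 for Ocln, -0.11 for Ndufs1, -0.31 for Il17ra, -0.0097 for Cd8a, -0.30 for Cd3e, -0.050 for Lck, -0.089 for Tbx21, -0.0075 for Eomes and -0.14 for Tppp3. With upper-quartile scaling it was -0.036 for Pcna, -0.057 for Il17ra and -0.072 for Cd3e, and with length offsets -0.18 for Pcna and -0.13 for Tppp3. With a mouse left out it ran from -0.026 to 0.18 for Pcna, -0.065 to 0.15 for Il17ra, -0.11 to 0.93 for Cd8a, -0.38 to 0.72 for Cd3e, -0.072 to 0.87 for Lck, -0.49 to 0.27 for Fyn, -0.049 to 0.81 for Tbx21 and -0.20 to 1.07 for Eomes. The list median moved for 38 of 50 lists without a scaling factor, for 20 with length offsets and for up to 13 with a mouse left out. A move is a shift of at least the within-group SD of the list's mean log2 level. The sign of the median changed for 6 of 50 lists without a scaling factor and for 2 with length offsets. Except as stated, the cause of these changes was not tested. With 3 and 4 mice and a table shared by each group, neither DSS nor batch can be separated, and genes below the filter cannot pass 0.05 in an exact test.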
